A study of Mus musculus with 2 samples.

Results

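The genes described are those of the RUNX transcription factors, Runx1, Runx2 and Runx3, and of their common partner Cbfb. All accessible regions with a summit inside these 4 gene bodies or within 50 kb on either side were taken, which gave 101 regions of the 84666 in the series. Replicate 1 contributed 95 of its 78016 peaks and replicate 2 contributed 89 of its 74653. The labels name the assay as ATAC-seq, where the transposase Tn5 cuts and tags loosely packed DNA. The material was primary T cells from mice of the strain C57BL/6NJ, as 2 libraries in 1 group, with no treatment and no second condition given by the labels. Sex was not collected and age is unknown. The libraries are numbered as biological replicates, but they share a donor record, so whether they came from separate animals is not known and the spread between them may be technical. The labels link a protocol for differentiating CD4+ T cells, and the names of the peaks contain Th0, 72hrs and also ASTARR.insert, none of which a source used here explains. Whether the fragments were sequenced straight from cells or after being built into a reporter library as inserts is therefore not known, and in that second case every signal value below would also carry the steps of building the library.

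RUNX proteins bind DNA through the Runt domain, and CBFβ, the product of Cbfb, joins that domain and strengthens its hold on DNA without touching DNA itself. Runx1 is needed for blood stem cells and for thymocyte development, Runx3 for the CD8 T-cell lineage and for silencing of Cd4, and Runx2 for bone formation. Each RUNX gene is transcribed from a distal promoter, which lies farther upstream, and from a proximal promoter inside the gene, and the resulting proteins differ at their amino ends. Blood and T cells are known for their use of the distal promoters of Runx1 and Runx3.

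The RUNX site searched was TGTGGT or TGCGGT on either strand, so a copy on the other strand reads ACCACA. Reading the sequence at the starts showed the same tandem arrangement at each distal promoter, ACCACANNACCACA along the direction of transcription, with the same bases between the copies. This arrangement was noticed after the values had been seen. The 3 stretches below, from the mm10 build, are printed along the gene strand, each with the site pair in capitals and 7 bases on either side.
Runx1, chr16:92826026-92826053, minus strand: ataaacaACCACAgaACCACAagttggg
Runx2, chr17:44814584-44814611, minus strand: acaaacaACCACAgaACCACAagtgcgg
Runx3, chr4:135120504-135120531, plus strand: tccctcaACCACAgaACCACAaggccag

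The pair began 103 bp downstream of the most 5′ annotated start of Runx1, 193 bp downstream of that of Runx2 and 141 bp upstream of that of Runx3. None of the 3 proximal starts had such a pair within 1000 bp, nor did the start of Cbfb. Among the 32851 promoter windows of the RefSeq table for the same assembly, each of 250 bases before and 50 after a start, 7 (0.0213%) held the pair on either strand, and 3 of those 7 were the distal starts of the RUNX genes. The string counted was taken from these 3 promoters, so their place among the 7 was fixed beforehand. A match of letters describes the sequence and does not show binding.

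In Runx1 the pair lay 63 bp from the summit of the distal promoter region, and in Runx3 it lay 21 bp from the summit. In Runx2 the pair lay outside the called region, 366 bp from its summit. The Runx3 distal window of 250 bases before the RefSeq start, chr4:135120395-135120644 on the plus strand, is shown with the RUNX matches in capitals because it carried the strongest promoter signal of the 4 genes.
Runx3 distal promoter: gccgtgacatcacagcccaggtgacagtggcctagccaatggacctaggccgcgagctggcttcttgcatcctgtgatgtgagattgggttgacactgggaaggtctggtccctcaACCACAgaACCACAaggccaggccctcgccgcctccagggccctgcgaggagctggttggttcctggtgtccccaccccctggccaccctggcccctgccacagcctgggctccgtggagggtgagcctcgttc

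The proximal promoter of Runx1 is shown for contrast, chr16:92697330-92697579 on the minus strand, with CG pairs in capitals. The Runx3 distal window held 8 CG pairs and 2 RUNX matches, and the Runx1 proximal window held 27 CG pairs and no RUNX match. Both windows are from RefSeq, on GRCm38.p6.
Runx1 proximal promoter: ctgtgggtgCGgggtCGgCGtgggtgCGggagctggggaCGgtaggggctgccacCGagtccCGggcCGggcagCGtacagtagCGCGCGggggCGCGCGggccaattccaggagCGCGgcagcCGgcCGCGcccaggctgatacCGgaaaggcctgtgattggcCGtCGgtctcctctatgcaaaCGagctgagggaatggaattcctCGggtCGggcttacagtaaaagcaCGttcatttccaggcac

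The same contrast in CG pairs held across the other windows. The distal windows of Runx1 and Runx2 held 2 and 0 CG pairs, and the windows of the Runx3 proximal and Cbfb starts held 38 and 25. A RUNX match was present in the 250 bases before the start in 2 of the 6 member windows that the table holds, and in 18.6% of all 32851 windows. The proximal start of Runx2 is named only.

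Accessibility is given for each peak by the authors' 2 values. The signal value of the seventh column is read here as fold enrichment over local background, and the ninth column is the −log10 of the q-value, which also grows with depth. How the peak caller took either value over the width of a peak is not given. Peaks were called on each library alone, depth is unknown, and no scaling between libraries is stated. With 1 group there is no test of a condition, and in a bulk sample fewer open cells and less accessibility per cell cannot be told apart.

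The first question was which promoters of the RUNX genes were accessible. Of the 7 start clusters of the 4 genes, meaning groups of protein-coding transcript starts no more than 2000 bp apart, 6 had a peak summit within 1000 bp in both libraries. Over all protein-coding genes 48.5% of 30935 start clusters did. The seventh, the distal promoter of Runx2, was found in replicate 1 only. All 4 genes thus had at least 1 promoter region in both libraries, as did 62.8% of 21829 genes.

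Runx3 had the strongest promoter of the 4 genes, at its distal start (chromosome 4, 135119935 to 135121089, summit 162 bp from the start). Its signal value was 17.4 in replicate 1 and 15.8 in replicate 2, higher than 98.8% and 97.7% of the peaks of those libraries, and its −log10 q reached 384 in replicate 1 and 223 in replicate 2. The Runx3 proximal promoter (135152007 to 135154030) had a signal value of 7.10 in replicate 1 and 7.07 in replicate 2, with −log10 q of 136 and 104. Both libraries therefore ranked the distal promoter well above the proximal one, and the 2 promoters did not overlap in value. A start of the non-coding gene Gm16225 also lies within 1000 bp of the distal summit, and ATAC-seq does not tell the 2 apart.

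The order was the other way round in Runx1. Its distal promoter (chromosome 16, 92824998 to 92826446, summit 40 bp from the start) had a signal value of 5.00 in replicate 1 and 5.01 in replicate 2, with −log10 q of 98.1 and 69.6. The proximal promoter (92696710 to 92698979) had a signal value of 7.67 in replicate 1 and 7.98 in replicate 2, with −log10 q of 145 and 117. By signal value the distal promoter lay in the lower part of all peaks, higher than 35.6% and 35.0% of them in replicates 1 and 2. The proximal promoter lay near the middle, higher than 59.1% and 61.9%. By −log10 q both ranked higher, the distal promoter above 77.4% and 76.4% of peaks and the proximal one above 84.6% and 86.4%.

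Runx2 was accessible mainly at its proximal promoter (chromosome 17, 44734217 to 44736732). There the signal value was 6.30 in replicate 1 and 5.97 in replicate 2, with −log10 q of 103 and 70.1. The start of the antisense gene Runx2os1 falls within 1000 bp of that summit. The distal promoter region (44814624 to 44815064) was 441 bp wide, had a signal value of 3.14 and a −log10 q of 3.98 in replicate 1, and had no peak in replicate 2. Its signal value was higher than 12.2% of the peaks of replicate 1. Since the threshold of the peak caller and the depth are not given, its absence from replicate 2 cannot be told from a value below threshold.

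Cbfb has 1 start cluster, and its region (chromosome 8, 105170041 to 105171845, summit 111 bp from the start) had a signal value of 10.2 in replicate 1 and 9.17 in replicate 2. Its −log10 q reached 260 in replicate 1, with 154 in replicate 2. In both libraries the order of the signal values was Runx3 distal, Cbfb, Runx1 proximal, Runx3 proximal, Runx2 proximal and Runx1 distal. The 2 libraries did not overlap between any neighbours in that order, though the steps from Runx1 proximal to Runx3 proximal and on to Runx2 proximal were close in size to the spread of log2 signal between the libraries over these loci (SD 0.16).

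**Figure D1:**
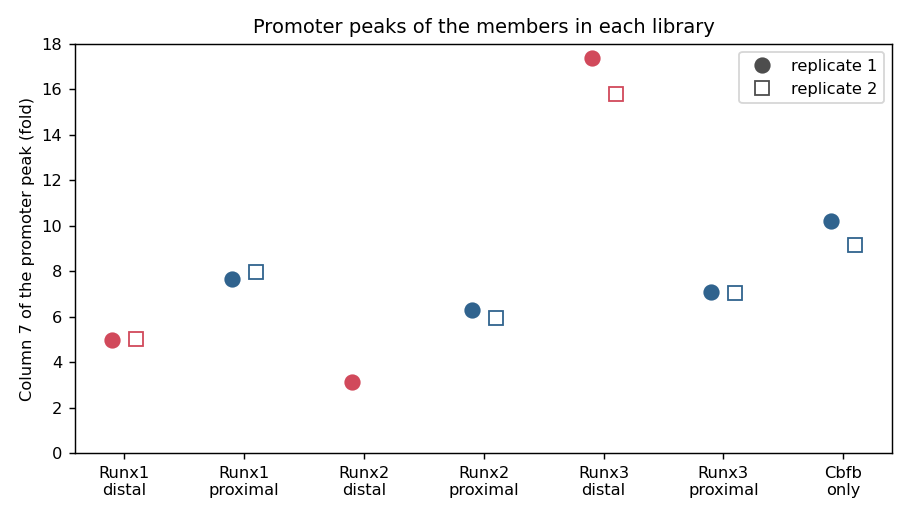
Signal value (column 7, fold) of the promoter peak at each start cluster of the 4 genes, with filled circles for replicate 1 and open squares for replicate 2, and distal starts in red. The Runx3 distal start stands highest in both libraries (17.4 and 15.8), and the Runx2 distal start has a point in replicate 1 only (3.14).

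Distal and proximal promoters were then compared within each library. The distal over proximal ratio of the signal value was 2.45 in replicate 1 and 2.24 in replicate 2 for Runx3, and 0.652 and 0.628 for Runx1. On the log2 scale these are 1.29 and 1.16 for Runx3, and −0.62 and −0.67 for Runx1, differences larger than the SD of 0.16 between libraries. For Runx2 the ratio was 0.498 in replicate 1, with no value in replicate 2. In −log10 q the distal promoter of Runx3 was 2.83 and 2.14 times its proximal one, and that of Runx1 was 0.678 and 0.595 times.

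These ratios were set against all genes with 2 or more start clusters, whatever the distance between the clusters. The proximal cluster was, among those after the first, the one with the most protein-coding transcripts. Peaks that also lie at the start of a neighbouring gene were kept, so the reference is not limited to alternative promoters like those of the RUNX genes. Of 6434 genes with 2 or more start clusters, 896 (13.9%) had regions in both libraries at the distal and at the proximal cluster, and 2 of the 3 RUNX genes were among them. The median of those genes was 0.21 in replicate 1 and 0.20 in replicate 2 on the log2 scale, so the distal start was somewhat stronger in the typical gene. The ratio of Runx3 was higher than that of 86.0% and 84.0% of them, and the ratio of Runx1 higher than that of 17.1% and 15.6%. Runx1 and Runx3 lie outside the interquartile range of the distribution (−0.40 to 0.86 in replicate 1 and −0.35 to 0.91 in replicate 2), on opposite sides, but not at its extremes. The distal and proximal starts are 129 kb apart in Runx1, 78.1 kb in Runx2 and 31.8 kb in Runx3.

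**Figure D2:**
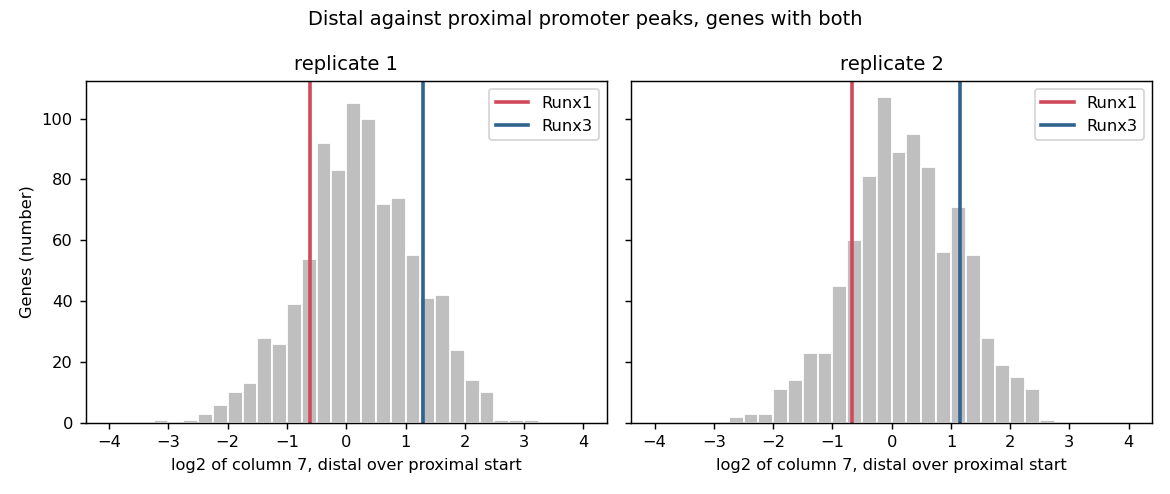
Number of genes by log2 of the signal value at the distal over the proximal start, for the 896 genes with regions at both in both libraries, with replicate 1 on the left and replicate 2 on the right. The lines mark Runx1, at −0.62 and −0.67, and Runx3, at 1.29 and 1.16.

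The regions of the 4 loci were shared between the libraries about as often as regions elsewhere. Of the 101 regions, 82 (81.2%) were present in both libraries, against 79.0% of all regions. Over the 81 that matched one to one, the signal value of replicate 1 was a median of 1.05 times that of replicate 2, and the −log10 q was a median of 1.43 times and higher in replicate 1 in 75 of the 81. Outside the loci the same medians were 1.04 and 1.39, so the higher −log10 q of replicate 1 was general. The 82 regions fall into 6 at the members' own promoters, 4 at promoters of neighbouring genes and 72 distal regions away from any protein-coding start.

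**Figure D3:**
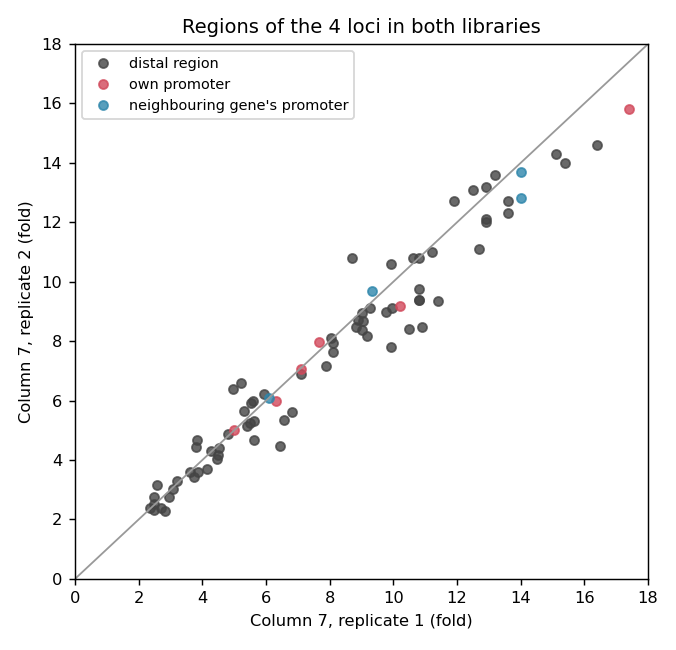
Signal value (column 7, fold) in replicate 1 against replicate 2 for the 82 regions of the 4 loci found in both libraries, coloured by class, with the line of equal values. Points lie along the line over the whole range, and the highest is the Runx3 distal promoter at 17.4 and 15.8.

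Within the gene bodies and 50 kb flanks, distal regions in both libraries numbered 24 in the Runx1 locus of 325 kb, 23 in the Runx2 locus of 419 kb, 17 in the Runx3 locus of 157 kb and 8 in the Cbfb locus of 147 kb. Per 100 kb that is 7.39 for Runx1, 5.49 for Runx2, 10.8 for Runx3 and 5.43 for Cbfb, where the median of 21938 genes was 3.06. Runx3 was denser than 98.4% of genes by this count, Runx1 than 90.5%, Runx2 than 76.8% and Cbfb than 76.2%. At the 2 short genes the count rested on the flanks: Runx3 had 6 distal regions with the gene body alone and 10 with a flank of 20 kb, and Cbfb had 1 and 3. Of the 90 distal regions found in either library, 60 were in introns, 26 between genes and 4 in exons. The signal value of the 72 found in both had a median of 7.95 in replicate 1 and 7.40 in replicate 2, against 6.68 and 6.41 for distal regions outside the loci, well inside the quartiles of those regions (4.56 to 9.89 and 4.46 to 9.42). The 10 promoter regions of the loci found in both libraries, those of neighbouring genes included, had a median of 8.50 in replicate 1 and 8.57 in replicate 2, lower than the 10.8 and 10.3 of promoter regions elsewhere and inside their quartiles (7.26 to 13.8 and 7.0 to 13.1).

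**Figure D4:**
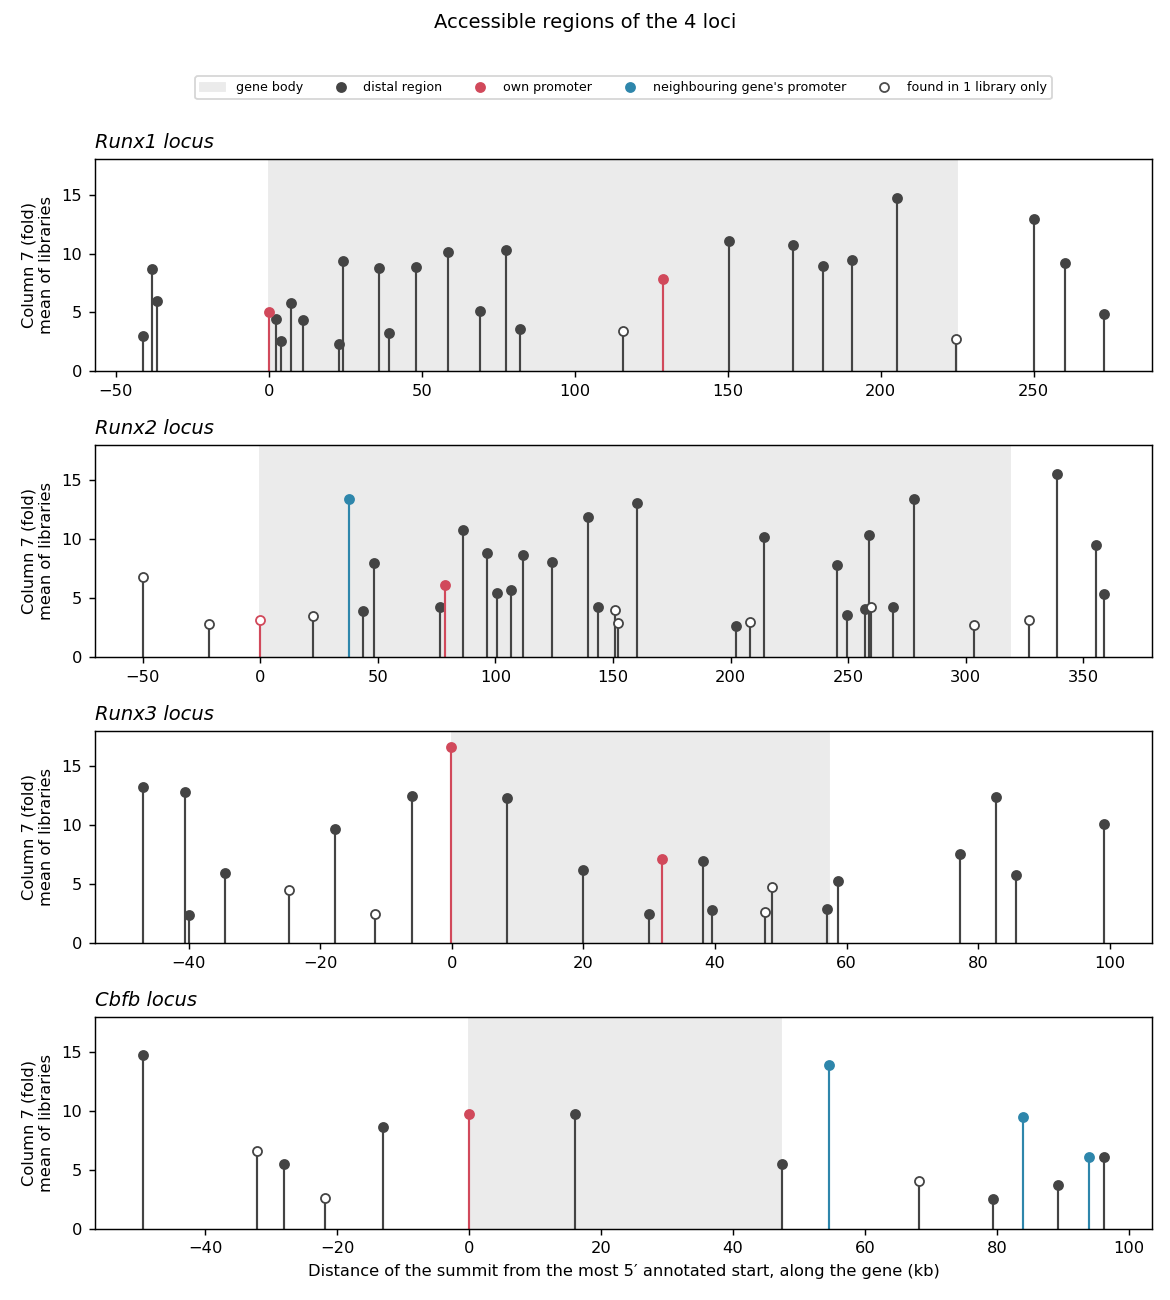
Each accessible region of the 4 loci, drawn at the distance of its summit from the gene's most 5′ start along the direction of transcription (kb), with a height equal to the mean signal value (column 7, fold) of the libraries that have it; open circles are regions found in 1 library, red marks the gene's own promoters, blue those of neighbouring genes, and grey the gene body. Upstream of the Supt3 promoter (blue, in the Runx2 panel) every Runx2 region is an open circle, whereas the Runx3 panel has strong regions on both sides of its distal promoter.

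The Runx1 regions spread along the whole gene. Between its 2 promoters, over 129 kb, lay 13 distal regions found in both libraries, 5 lay after the proximal promoter over 95.9 kb, 3 lay upstream and 3 beyond the 3′ end. The strongest was in an intron downstream of the proximal promoter, 205.2 kb from the distal start (92620579 to 92621535). It had a signal value of 15.1 in replicate 1 and 14.3 in replicate 2 and −log10 q of 301 and 196. It was stronger than both Runx1 promoters in both libraries.

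The next of Runx1 lay beyond the 3′ end at 250.2 kb (92575885 to 92576412), with 13.6 in replicate 1 and 12.3 in replicate 2. Regions at 150.3 kb (92675295 to 92676301), with 11.2 and 11.0, and at 171.3 kb (92653910 to 92654998), with 10.6 and 10.8, followed. The fifth, at 77.7 kb between the promoters (92747960 to 92749023), had 10.8 in replicate 1 and 9.74 in replicate 2. Weak regions were found close to the distal promoter, among them one at 4.1 kb with 2.70 and 2.38 and one at 22.9 kb with 2.35 and 2.37, which was the lowest mean of this locus. Only 2 Runx1 regions were in 1 library, both in replicate 2, at 115.8 kb with a signal value of 3.40 and at 224.7 kb with 2.76.

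Runx2 differed along its length. Upstream of the Supt3 promoter, which lies 37.6 kb inside the gene, there were 4 regions, including the distal promoter, and all 4 were found in replicate 1 only. Their signal values were 6.79 at the edge of the upstream flank, 2.81 at 22.0 kb upstream, 3.14 at the distal promoter and 3.48 at 22.6 kb inside the gene. The first of these has its summit 41 bp inside the 50 kb limit and lies in an intron of Supt3, which encodes a subunit of the SAGA coactivator and runs over the Runx2 distal promoter. After the proximal promoter, in contrast, 17 distal regions were found in both libraries over 241 kb.

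The strongest distal region of Runx2 was beyond the 3′ end, 338.7 kb from the distal start (44475681 to 44476503), with a signal value of 16.4 in replicate 1 and 14.6 in replicate 2 and −log10 q of 181 and 102. The next was intronic at 278.1 kb (44536490 to 44537267), with 13.2 and 13.6. Introns also held those at 160.1 kb (44654169 to 44655088), with 12.9 and 13.2, at 139.5 kb (44674644 to 44675384), with 12.7 and 11.1, and at 86.1 kb (44727708 to 44728973), with 10.8 in each library. All 5 exceeded the Runx2 proximal promoter in both libraries. Another 6 distal regions of this locus were found in 1 library, namely in replicate 1 at 150.7 kb (4.04), 152.1 kb (2.91), 208.5 kb (2.98) and 259.6 kb (4.27), and in replicate 2 at 303.4 kb (2.76) and 327.0 kb (3.18).

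At Runx3 the strong regions lay around the distal promoter and beyond the 3′ end. Within the 50 kb upstream, 6 distal regions were found in both libraries, 3 lay between the promoters, 3 after the proximal promoter and 5 beyond the 3′ end. The strongest lay 47.0 kb upstream (135073253 to 135074190), with a signal value of 13.6 in replicate 1 and 12.7 in replicate 2 and −log10 q of 145 and 98.2. Close to it, 40.6 kb upstream (135079588 to 135080370), another had 12.5 and 13.1, and one 6.1 kb upstream (135114133 to 135115216) had 12.9 and 12.1.

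A region 82.8 kb downstream of the distal start, beyond the 3′ end of Runx3 (135203235 to 135204036), had 12.9 in replicate 1 and 12.0 in replicate 2. Its −log10 q, at 420 and 284, was the highest of all regions in the 4 loci. The fifth, 8.4 kb inside the gene (135128540 to 135129428), had 11.9 and 12.7. Of 4 regions found in 1 library, those at 11.7 kb upstream (2.47) and 47.6 kb inside (2.64) were in replicate 1, and those at 24.8 kb upstream (4.46) and 48.6 kb inside (4.79) were in replicate 2. The last region downstream in this locus lies in an intron of Clic4, a neighbouring gene of the chloride intracellular channel family, with 10.8 in replicate 1 and 9.38 in replicate 2.

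Cbfb had a single distal region inside its body, at 16.0 kb (105186232 to 105187108), with 8.69 in replicate 1 and 10.8 in replicate 2. The strongest of the locus lay 49.5 kb upstream (105120751 to 105121540), with 15.4 and 14.0, and its summit is 518 bp inside the limit. Those at 13.0 kb upstream (105157527 to 105158410), with 9.16 and 8.16, at 96.3 kb downstream (105266701 to 105267483), with 5.92 and 6.22, and at 47.5 kb (105217652 to 105218703), with 5.63 and 5.30, completed the first 5. Of the 3 found in 1 library, those at 32.1 kb upstream (6.62) and 21.8 kb upstream (2.65) were in replicate 1, and the one at 68.2 kb downstream (4.03) was in replicate 2.

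The Cbfb locus also held promoter regions of neighbouring genes, which ranged widely in signal value. D230025D16Rik, at 54.5 kb (105224504 to 105225861), had a signal value of 14.0 in replicate 1 and 13.7 in replicate 2, above Cbfb itself. In −log10 q the order was reversed, with 190 and 136 for D230025D16Rik and 260 and 154 for Cbfb. B3gnt9, a glycosyltransferase gene, had 9.34 and 9.70 at 84.0 kb. A region at 94.0 kb lies at the starts of Fbxl8, which encodes an F-box protein, and of Tradd, an adaptor of the tumour necrosis factor receptor, with 6.08 and 6.09. At Runx2 the proximal promoter, with 6.30 and 5.97, was lower than the Supt3 promoter (44776723 to 44777944), which had 14.0 in replicate 1 and 12.8 in replicate 2. Distance alone placed these regions at the member genes, and which gene a distal region serves was not measured.

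At the limits of the rule, just outside the 50 kb flank, the next region of Runx1 had 7.61 in replicate 1 and 7.43 in replicate 2, that of Runx2 had 8.61 and 6.06, that of Runx3 4.15 and 4.30 and that of Cbfb 2.81 and 2.21. The outermost regions inside it had 4.80 and 4.88 for Runx1, 6.79 in replicate 1 for Runx2, 13.6 and 12.7 for Runx3 and 15.4 and 14.0 for Cbfb. No summit in the 4 loci lay near the 1000 bp limit for promoters, the nearest being 445 bp from a start (B3gnt9) and 1800 bp from one (a distal region of Runx2 with 4.26 and 4.31).

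Sequence was read in the 200 bp around each summit. The strongest distal region of each RUNX gene held AP-1 matches, TGAGTCA or its other strand TGACTCA, the site of Fos, Jun and BATF proteins, and no RUNX match, whereas that of Cbfb held 1 RUNX match and no AP-1 match. Over all distal regions of the series, 25.0% held an AP-1 match and 26.1% a RUNX match. The second strongest regions differed: that of Runx1 held neither site, that of Runx2 held 4 RUNX matches and no AP-1 match, and that of Runx3 held 1 of each. The strongest regions of the RUNX genes are printed on the plus strand with the AP-1 matches in capitals.
Runx1, chr16:92620842-92621041: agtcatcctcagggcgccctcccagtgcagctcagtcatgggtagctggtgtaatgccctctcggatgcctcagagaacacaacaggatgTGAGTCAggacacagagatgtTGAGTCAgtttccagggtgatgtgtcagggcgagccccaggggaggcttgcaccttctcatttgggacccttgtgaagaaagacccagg
Runx2, chr17:44476021-44476220: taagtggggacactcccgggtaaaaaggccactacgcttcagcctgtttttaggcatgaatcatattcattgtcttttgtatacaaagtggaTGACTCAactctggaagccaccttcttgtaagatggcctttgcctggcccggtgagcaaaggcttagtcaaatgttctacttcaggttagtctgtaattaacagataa
Runx3, chr4:135073593-135073792: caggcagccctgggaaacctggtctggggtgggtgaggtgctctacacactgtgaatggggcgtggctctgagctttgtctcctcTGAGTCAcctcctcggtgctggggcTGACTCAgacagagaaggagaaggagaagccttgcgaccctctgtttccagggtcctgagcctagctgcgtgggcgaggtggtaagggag

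The Runx1 and Runx3 regions held 2 AP-1 matches each and the Runx2 region held 1. The distal region with the most RUNX matches was the intronic one of Runx2 at 278.1 kb, with 4, and it is printed on the plus strand with those in capitals.
Runx2, chr17:44536597-44536796: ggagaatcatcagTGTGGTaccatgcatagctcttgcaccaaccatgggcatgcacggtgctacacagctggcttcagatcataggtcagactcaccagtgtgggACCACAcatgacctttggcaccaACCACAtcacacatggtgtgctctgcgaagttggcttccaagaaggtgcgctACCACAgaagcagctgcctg

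Over the 72 distal regions found in both libraries, 24 (33.3%, exact Clopper-Pearson 95% interval 22.7 to 45.4) held a RUNX match, against 26.1% of all such regions of the series. AP-1 was matched in 21 (29.2%, 19.0 to 41.1), against 25.0%. ETS, searched as CCGGAA or CAGGAA, was matched in 19 (26.4%, 16.7 to 38.1), against 31.7%. GATA, searched as AGATAA or TGATAA, was matched in 10 (13.9%, 6.87 to 24.1), against 15.0%. TCF1 and LEF1, searched as CTTTGAT, were matched in 4 (5.56%, 1.53 to 13.6), against 4.32%. CTCF, the insulator protein, was matched in 1 (1.39%, 0.0352 to 7.50), against 6.49%. The background share lay inside the interval for each of these 6 sites, so at this number of regions no difference from the rest of the series was detectable, and the intervals cover counting error only.

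The matches were spread unevenly among the 4 loci, with small numbers in each. RUNX sites were in 11 of 24 distal regions at Runx1, 4 of 23 at Runx2, 5 of 17 at Runx3 and 4 of 8 at Cbfb. AP-1 sites were in 8 of 24 at Runx1, 10 of 23 at Runx2, 3 of 17 at Runx3 and 0 of 8 at Cbfb. The median GC content of the same 200 bp was 51.0% at Runx1, 46.0% at Runx2, 57.0% at Runx3 and 53.2% at Cbfb, against 48.0% outside the loci. Base composition changes how often a given string of letters occurs, and its part in these counts was not tested.

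**Figure D5:**
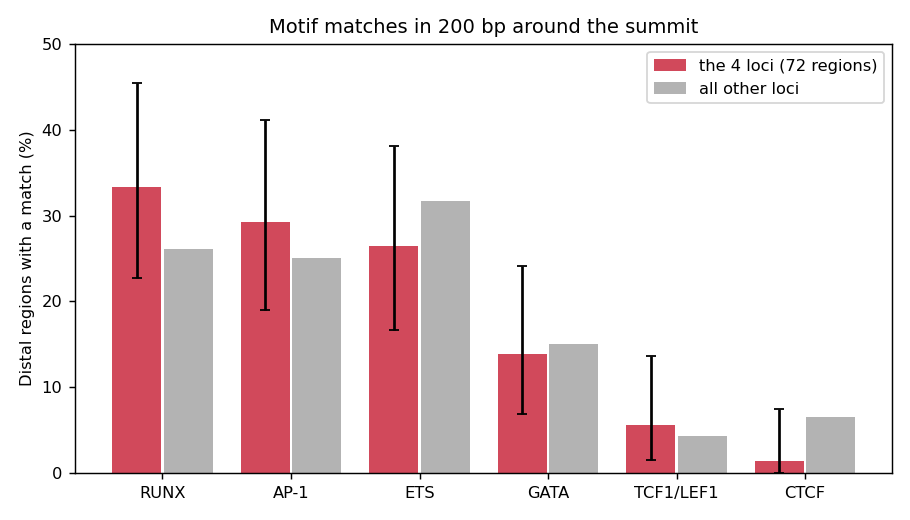
Share of distal regions found in both libraries (percent) with a match within 200 bp around the summit, for the 72 regions of the 4 loci in red with exact 95% binomial intervals, and for all other distal regions in grey. The grey bar lies within the interval of the red one at each of the 6 sites.

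Genes that act with RUNX factors were read at their promoters in the same way. Of 16 cofactor genes, 15 had a promoter region in both libraries, where 62.8% of all genes did. The strongest were Cbfa2t2, a corepressor of the ETO family, with 17.3 in replicate 1 and 16.1 in replicate 2, and Suv39h1, a histone H3 lysine methyltransferase, with 15.6 and 15.4. Tle2, one of the Groucho-type corepressors that RUNX proteins recruit, had none, and its nearest summit lay 3020 bp from a start of a protein-coding transcript. Its relatives Tle1, Tle3 and Tle4 had 11.0, 5.75 and 13.3 in replicate 1 and 9.78, 4.77 and 11.4 in replicate 2.

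Of 15 genes known as RUNX targets in T cells, 12 had a promoter region in both libraries, where 62.8% of all genes did. Among the 50000 peaks of each library with the highest signal value, 6 of the 15 did. The share of all genes was not computed at that cut, which removes peaks from every gene, so the 6 cannot be set against the 62.8%. Gzmb, which encodes the cytotoxic protease granzyme B, had 14.3 in replicate 1 and 12.8 in replicate 2, and Foxp3, the regulator of regulatory T cells, had 9.65 and 8.93. Cd4, which Runx3 silences in the CD8 lineage, had 2.84 and 3.24. Zbtb7b, which encodes ThPOK and is restrained by RUNX factors in the same lineage, had 4.47 and 4.07. Both were named after their values were seen. In −log10 q Zbtb7b, with 138 and 83.8, was close to Gzmb, with 139 and 98.4, and Cd4 had 22.4 and 24.0. The median signal value, as the mean of both libraries, was 6.13 over the promoters of this list and 5.83 over those of the T-cell marker genes. On the same measure it was 10.4 over the cofactor promoters and 8.85 over those of the bone and cartilage genes below. Promoter regions outside the 4 loci had a median of 10.8 in replicate 1 and 10.3 in replicate 2, so the target and T-cell marker promoters lay below promoters in general. Cd8a, Itgae and Ifng had no promoter region. Their nearest summits lay 12007 bp from a start for the coreceptor gene Cd8a, 2442 bp for the integrin gene Itgae and 2110 bp for the cytokine gene Ifng.

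Of 8 genes of the bone and cartilage programme that Runx2 drives in osteoblasts and chondrocytes, 4 had a promoter region in both libraries, where 62.8% of all genes did. The strongest were Alpl, which encodes tissue-nonspecific alkaline phosphatase, with 13.8 in replicate 1 and 12.0 in replicate 2, and the collagen gene Col1a1 with 10.8 and 9.84. Bglap, Ibsp, Col10a1 and Mmp13 had none.

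The labelled cell type was checked on its markers. Promoter regions in both libraries were found at 7 of 8 T-cell genes, where 62.8% of all genes had one. The exception was Cd247, with a summit 1328 bp from its start. Such regions were found at 0 of 3 B-cell genes, 0 of 3 myeloid genes, 0 of 1 hepatocyte gene and 2 of 4 bone and cartilage genes (Sp7 and Col2a1). Lists this short do not settle the cell type. An accessible promoter does not show that a gene is transcribed, and RNA was not measured here.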

How the data were processed

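Peak lists of 2 ATAC-seq libraries of mouse T cells on mm10, per the labels, were used as deposited, with 78104 and 74733 peaks. Column 7 is the authors' signal value, read as a ratio (fold enrichment) from its values, and column 9 is the authors' −log10 q. The aligner, caller, versions and threshold are not given in the sources used here. Depth is unknown.

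Peaks on sequences other than the autosomes, X and Y were left out (88 and 80), and coordinates are 1-based. Peaks of the 2 libraries that overlapped by at least 1 bp were merged into a region, which took its strongest summit. Starts were those of protein-coding transcripts of GENCODE mouse release 21, and sequence came from RefSeq GRCm38.p6, which has the coordinates of mm10. Promoter, flank and motif windows are given beside the results. The named regions are every promoter region, the 5 strongest distal regions of each locus and every region in 1 library only; from each list the 2 genes with the strongest promoter and each with none were named, and Tle1, Tle3, Tle4, Cd4, Zbtb7b and other regions named beyond this rule were chosen after their values were seen. The members and lists were chosen with earlier results of these data known. One marker list is not reported here. With 1 group, no test was run. Alternatives covered the peak threshold, overlap, flank, promoter distance, motif window, transcript set and each library alone. Code was tested on simulated data, in Python 3.11.15 with pandas 2.3.3 and scipy 1.17.1.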

Additional observations from a re-analysis of the deposited data

How the results depend on the processing

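Across 13 other settings, 122 of 145 recomputed values moved by no more than the limits used here (1.5 times for a count, the 95% interval for a share, the SD between libraries for a median). The 6 start clusters with a region in both libraries ranged from 5, among the 50000 peaks of each library with the highest signal value, to 7, with replicate 1 alone. With gene bodies alone, the regions in both libraries were 50 of the 82 and the distal regions 45 of the 72. With replicate 1 alone, the regions numbered 95 and the distal regions 84, and with replicate 2 alone 89 and 79. The median signal value of distal regions, 7.69 as the mean of both libraries, was 6.51 with replicate 1 alone and 6.39 with replicate 2 alone, where weak regions of a single library enter, 9.41 among the 50000 strongest peaks, and 6.89 with a flank of 100 kb. The RUNX share of 33.3% was 18.1% in a 100 bp window, and in a 300 bp window the ETS share was 40.3% and the GATA share 25.0%. A wider window holds more matches by construction. The share over all distal regions was taken in the 200 bp window only, so these values have no background to be compared with. Target genes with a promoter region numbered 12, and 6 among the 50000 strongest peaks, a cut at which the share of all genes was not computed. With the starts of all annotated transcripts, chosen after seeing the data, Tle2 was added to the cofactors (16 of 16). No paired analysis was possible because there is 1 group. As depth is unknown, a region absent from a library may lie under its threshold.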
